A study of Mus musculus with 6 samples.

Results

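Tight junction genes were compared between wild type and FOG-2 Rb- mouse embryonic fibroblasts (MEF), primary mesenchymal cells grown out of embryos. The genes were taken by symbol from the expression table, under a rule set with earlier results of these data known. It took every claudin symbol (Cldn with a number and at most 1 letter), Tjp1 and Tjp3, and Marveld1 to Marveld3. It also took Ocln, F11r, Jam2, Jam3, Cgn, Cgnl1, Epcam, Crb3, Esam and Slc9a3r1. Of 23748 rows, 40 met this rule. They were 25 claudins, 4 MARVEL domain proteins with occludin among them, 4 junctional adhesion molecules and related immunoglobulin proteins, 2 zonula occludens scaffolds, 2 cingulins, and Epcam, Crb3 and Slc9a3r1.

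There were 3 wild type samples and 3 samples labelled FOG-2 Rb-, a knock-in allele of the GATA co-factor FOG-2 that, by the title of the study, cannot bind the retinoblastoma protein pRb. All cells came from E14.5 embryos, were growing in medium with 20% donor bovine serum, and were collected before any differentiation. Samples are numbered as experiments 1 to 3 within a genotype. Nothing in the labels ties an experiment to its own embryo or culture, and p-values therefore reflect only how far these samples differ, a spread that may be technical. Every wild type title carries the number 18 and every FOG-2 Rb- title the number 27, and no fit can separate the genotype from what that number stands for: they cannot be told apart.

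Tight junctions seal the space between neighbouring epithelial or endothelial cells. Claudins, membrane proteins with several spans, form the strands and set which ions may pass. The MARVEL proteins occludin and tricellulin lie in the same strands, and the junctional adhesion molecules lie beside them. On the inner side, the zonula occludens scaffolds and the cingulins tie the strands to the actin and microtubule cytoskeleton. Fibroblasts as a rule build no such strands, although they use the scaffold ZO-1 and several adhesion molecules at other contacts.

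Within a genotype, arrays correlated across genes at 0.997 to 0.998, and between genotypes at 0.990 to 0.991. The labelled cell type was checked against its markers. The collagen genes Col1a1 and Col1a2 had log2 means of 12.42 and 12.32 in wild type and 12.80 and 12.29 in FOG-2 Rb-. The other defining markers, Pdgfra and Dcn, had 11.16 and 11.49 in wild type and lower means of 10.25 and 9.72 in FOG-2 Rb-. Over the 6 arrays none of the 12 fibroblast markers was dim, although Lum had a mean of 4.34 in FOG-2 Rb-. A row is called dim here where its mean over the 6 arrays lay under a log2 level of 5.07, the 95th percentile of 1088 odorant receptor rows, which stand in for background because these receptors are not expected in fibroblasts. Of the 40 tight junction genes, 22 were dim, among them 16 of the 25 claudins, occludin, tricellulin and Epcam. Over the whole array, 9700 of 23748 rows were dim. In bulk samples, fewer cells of a type and less RNA per cell cannot be told apart.

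Of the tight junction genes, 8 were higher and 1 was lower in the mutant fibroblasts. The junctional adhesion molecule gene F11r rose 3.78-fold, the ezrin-binding scaffold gene Slc9a3r1 2.11-fold, the claudin genes Cldn15, Cldn12 and Cldn1 1.90-fold, 1.44-fold and 1.29-fold, and the cingulin-like gene Cgnl1 1.65-fold. Jam3 and Jam2 rose 1.24-fold and 1.16-fold, and Tjp1, the gene of ZO-1, fell 1.16-fold. Each fold was taken from the difference of mean log2 values, with the higher genotype on top, and calls are adjusted p under 0.05 in limma over all 23748 rows. The rise of F11r, Slc9a3r1, Cldn15, Cldn12, Cldn1 and Cgnl1 passed in each of the 12 alternatives tried, whereas the calls of Jam2, Jam3 and Tjp1 did not.

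**Figure D1:**
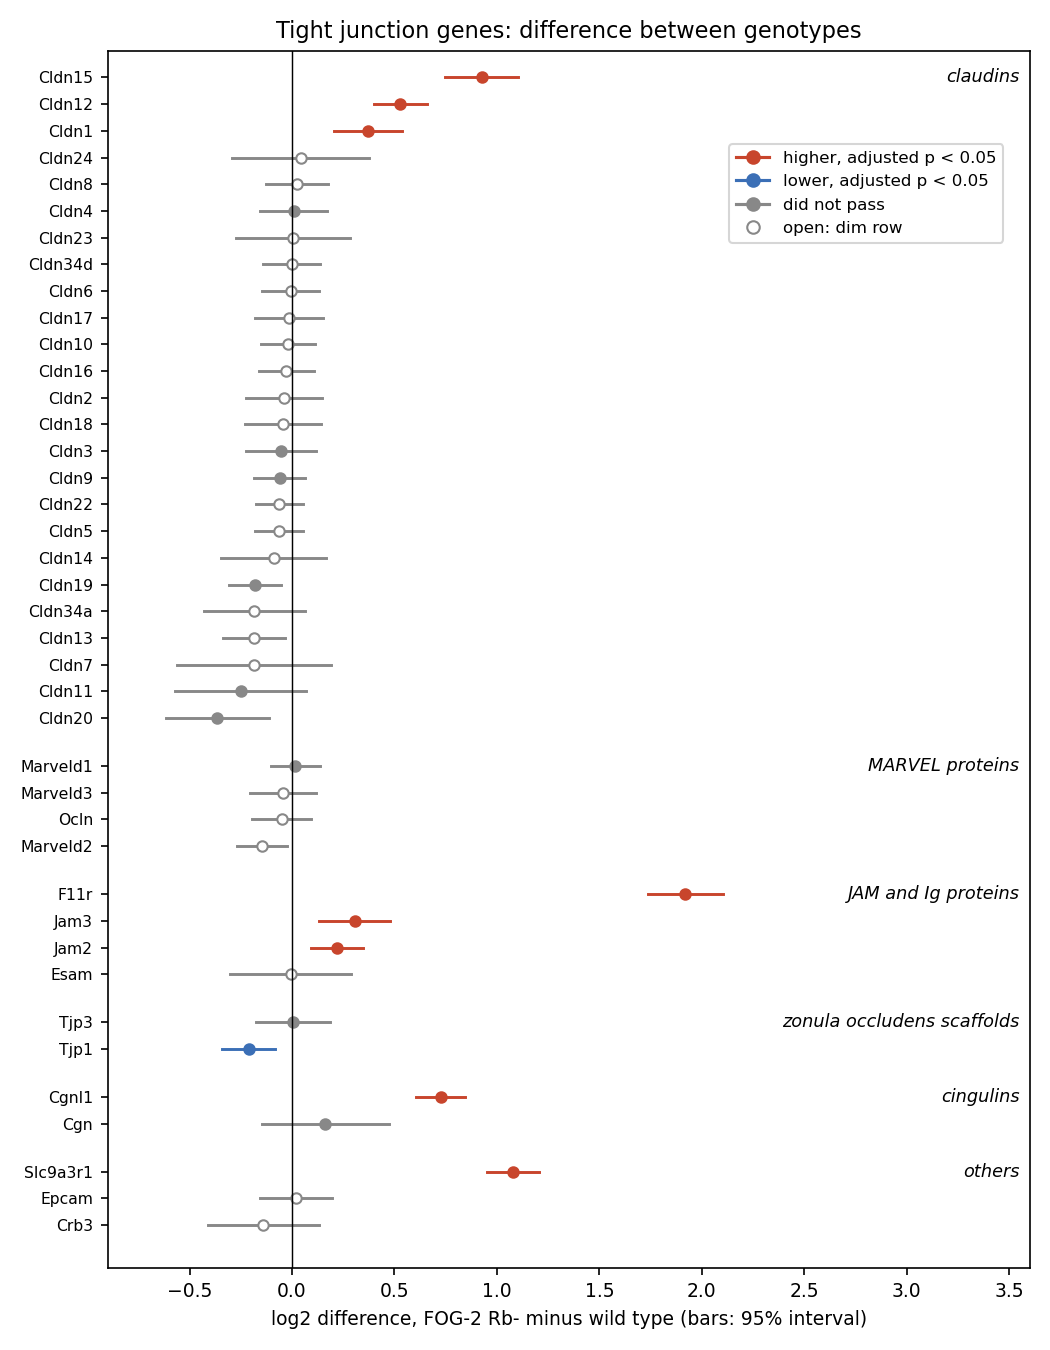
Log2 difference of each of the 40 tight junction genes (FOG-2 Rb- minus wild type, horizontal axis) by class of protein, with 95% intervals from limma over 3 arrays a genotype. Red marks the 8 genes called higher, blue the 1 called lower, grey those that did not pass, and open points dim rows. F11r lies farthest to the right at 1.92, and the dim rows lie between -0.19 and 0.04.

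As a whole the 40 genes were called at 22.5%, beside 18% of all rows. Higher calls made up 20% of the 40 genes and 9.44% of all rows, and lower calls 2.5% and 8.59%. In 14 of the 40 genes, or 35%, the arrays of one genotype all lay above those of the other, beside 35.6% of all rows. The median log2 difference was -0.02 over the 40 genes and -0.02 over all rows. The absolute difference had a median of 0.06 over the 40 genes and 0.10 over all rows. Each of the 9 called genes lay above the dim limit on all 6 arrays, and 0 of the 22 dim genes were called. The share called among all dim rows was not taken here, so this 0 has nothing to be set against. Ranked by log2 difference among all 23748 rows, from the highest, F11r was at place 42, Slc9a3r1 at 160, Cldn15 at 209 and Cgnl1 at 342.

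**Figure D2:**
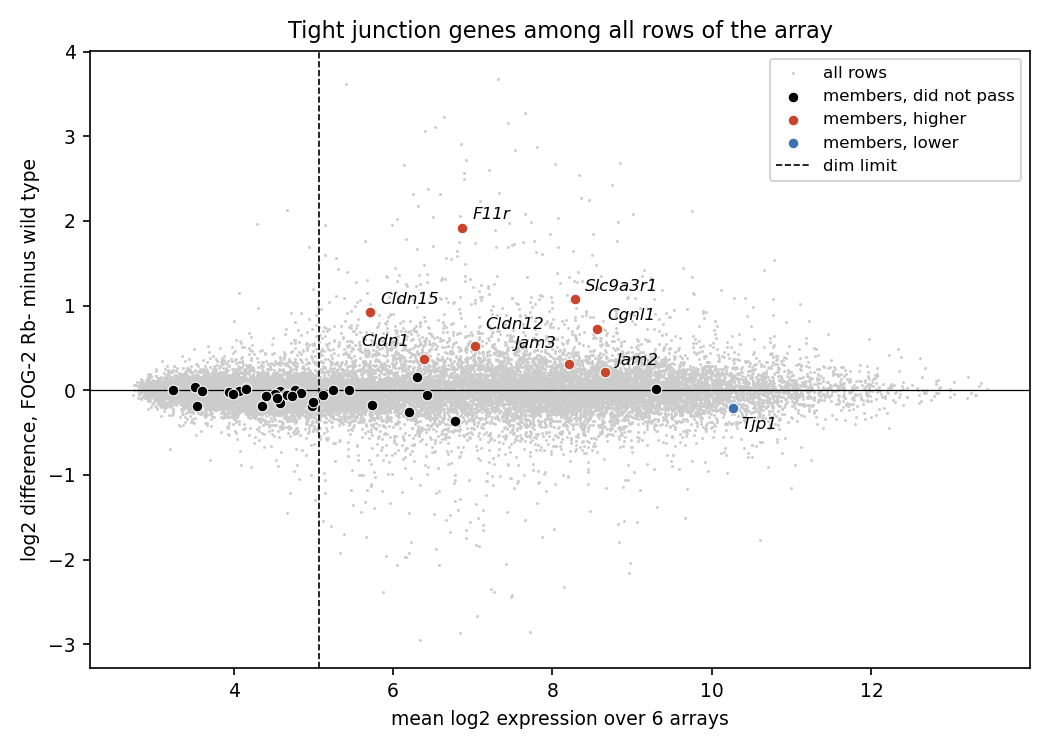
Mean log2 expression over the 6 arrays (horizontal axis) against the log2 difference between genotypes (vertical axis) for all 23748 rows in grey, with the tight junction genes in colour and the 9 called ones named. The dashed line is the dim limit at 5.07; the 22 dim members to its left lie close to 0, and the 8 higher members lie to its right.

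Promoter windows are shown for the 3 genes with the largest rises and for the genes whose window held a searched motif. RefSeq (GRCm38.p6) gave windows for 7 of the 9 called genes, all but Jam2 and Jam3. There were 9 windows in all, several of them overlapping windows of Cldn12, from 250 bases before to 50 after the gene's start. They were searched on both strands for GATA sites (spelled AGATAA or AGATAG, or with a leading T as in TGATAA or TGATAG), since FOG-2 acts through GATA factors, and for the E-box CAGGTG with its reverse complement CACCTG, a form that Snail and Zeb factors bind and that falls within the wider class of E-boxes. The windows are written 5′ to 3′ along the gene, and capitals mark a match.
F11r, chr1:171437311-171437610, plus strand: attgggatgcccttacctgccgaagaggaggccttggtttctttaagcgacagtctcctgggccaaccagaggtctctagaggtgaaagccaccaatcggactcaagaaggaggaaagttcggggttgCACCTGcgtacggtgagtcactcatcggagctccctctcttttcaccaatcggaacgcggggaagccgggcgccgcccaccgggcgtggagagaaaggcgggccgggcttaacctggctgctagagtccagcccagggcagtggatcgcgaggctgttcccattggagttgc
Slc9a3r1, chr11:115163091-115163390, plus strand: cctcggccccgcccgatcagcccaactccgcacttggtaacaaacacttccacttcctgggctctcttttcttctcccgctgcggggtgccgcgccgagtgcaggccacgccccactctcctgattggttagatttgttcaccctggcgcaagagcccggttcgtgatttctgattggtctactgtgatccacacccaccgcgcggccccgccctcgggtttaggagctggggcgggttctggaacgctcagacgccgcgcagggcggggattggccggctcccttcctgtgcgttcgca
Cldn15, chr5:136967619-136967918, plus strand: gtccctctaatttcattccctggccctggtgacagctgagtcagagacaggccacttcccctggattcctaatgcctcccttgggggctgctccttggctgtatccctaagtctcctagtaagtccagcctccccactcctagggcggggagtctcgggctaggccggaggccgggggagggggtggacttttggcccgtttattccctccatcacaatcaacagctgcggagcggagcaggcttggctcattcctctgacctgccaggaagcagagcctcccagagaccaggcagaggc
Cldn1, chr16:26371790-26372089, minus strand: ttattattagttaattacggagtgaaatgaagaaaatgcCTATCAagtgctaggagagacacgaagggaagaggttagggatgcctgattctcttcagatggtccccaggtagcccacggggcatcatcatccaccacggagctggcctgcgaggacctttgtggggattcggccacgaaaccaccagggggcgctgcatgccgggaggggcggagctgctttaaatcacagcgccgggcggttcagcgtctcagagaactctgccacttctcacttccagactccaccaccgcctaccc
Tjp1, chr7:65371195-65371494, minus strand: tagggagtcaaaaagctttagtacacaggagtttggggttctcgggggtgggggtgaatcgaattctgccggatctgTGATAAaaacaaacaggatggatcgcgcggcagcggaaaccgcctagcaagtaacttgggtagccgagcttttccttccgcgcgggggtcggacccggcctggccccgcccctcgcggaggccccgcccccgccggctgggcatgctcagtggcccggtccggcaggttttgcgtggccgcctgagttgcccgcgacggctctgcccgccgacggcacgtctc

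The F11r window held an E-box whose first base lay at -122 from the start. A GATA site began at -211 in the Cldn1 window and at -173 in the Tjp1 window, so a gene that rose and the gene that fell each held 1. The windows of Slc9a3r1, Cldn15, Cgnl1 and Cldn12 held no match. Of the 9 windows, 2 held a GATA site and 1 an E-box, beside 29.8% and 20.2% of all 32851 windows in the same table. Several of the windows without a match belong to Cldn12. Counted by gene, 2 of 7 held a GATA site and 1 of 7 an E-box. A match of letters is a description and not a bound site.

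Among the junctional adhesion molecules, immunoglobulin proteins that span the membrane and bind their like on the next cell, F11r changed most. F11r, which encodes JAM-A, had log2 levels of 6.01, 5.77 and 5.93 on the wild type arrays, in the order of their numbers, and of 7.74, 7.89 and 7.83 on the FOG-2 Rb- arrays. All FOG-2 Rb- arrays were above all wild type arrays, and the gap between the genotypes was far wider than the spread within either. The log2 difference was 1.92 (SE 0.08, 95% interval 1.74 to 2.10, limma adjusted p = 1.79e-05), and it ranged from 1.85 to 1.97 over the alternatives.

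Jam3, the gene of JAM-C, measured 7.90, 8.13 and 8.14 in wild type and 8.36, 8.36 and 8.37 in FOG-2 Rb-. Wild type replicate 1 was the low array, and the genotypes did not overlap. The log2 difference was 0.31 (SE 0.07, limma adjusted p = 0.0302). Dropping wild type replicate 2 gave an adjusted p of 0.0517, dropping FOG-2 Rb- replicate 1, 2 or 3 gave 0.0825, 0.084 and 0.0905, and with each array centred on its median it was 0.0523. Jam2, the gene of JAM-B, measured 8.55, 8.49 and 8.59 in wild type and 8.71, 8.83 and 8.75 in FOG-2 Rb-. Its log2 difference of 0.22 (SE 0.05, limma adjusted p = 0.032) came with arrays that did not overlap, by a narrow margin. Leaving out any 1 array other than wild type replicate 3 gave adjusted p from 0.054 to 0.102, and centred arrays gave 0.0538. Esam, an endothelial relative of these genes, was dim, at 4.58 ± 0.20 and 4.58 ± 0.18 (SD, n = 3 each), with a log2 difference of -0.01 (95% interval -0.30 to 0.29).

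**Figure D3:**
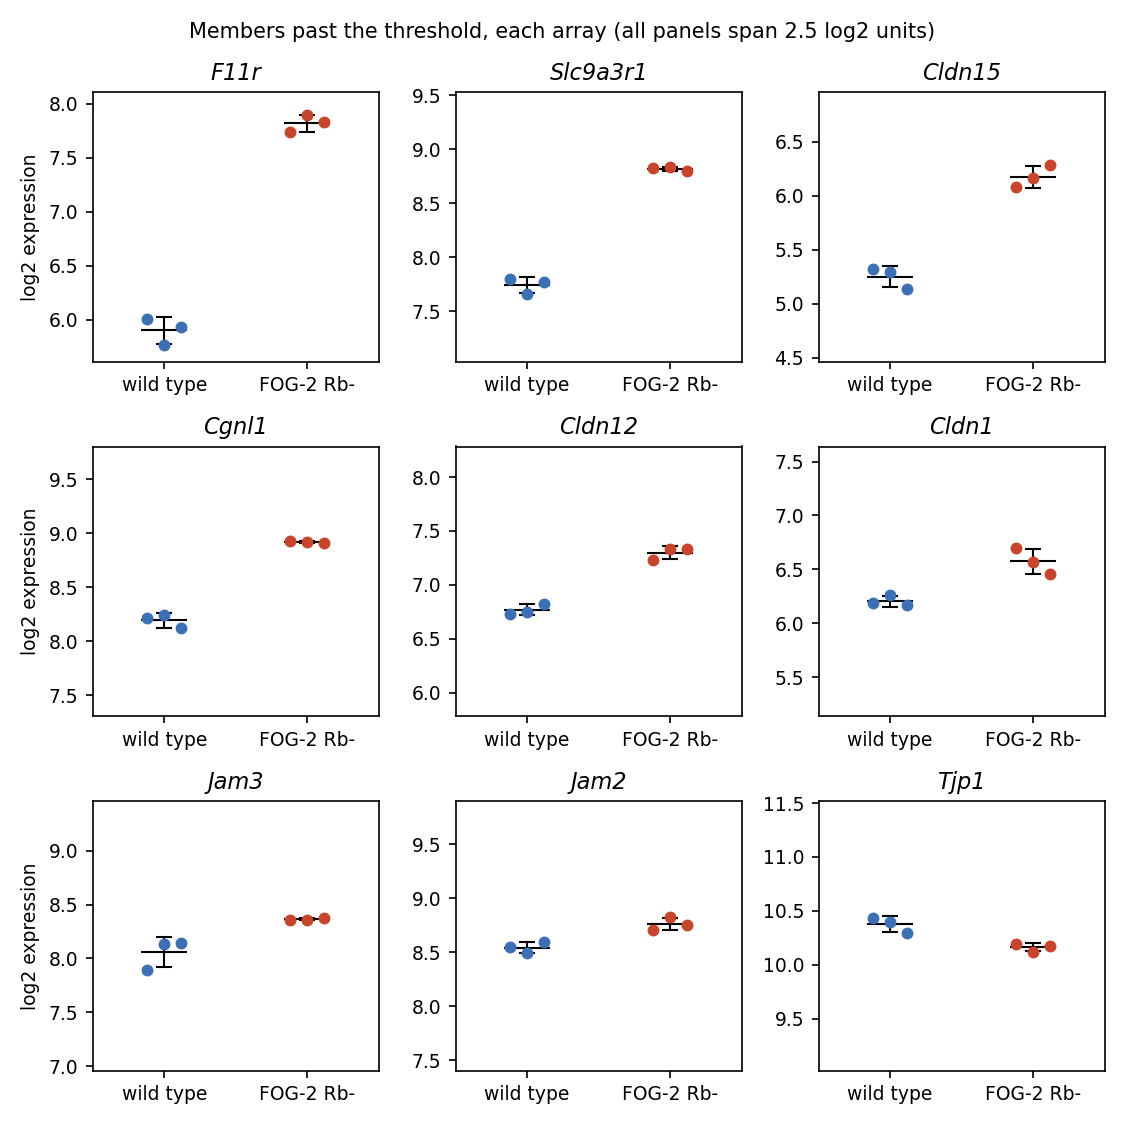
Log2 expression (vertical axis) on each array of the 9 called genes, wild type in blue and FOG-2 Rb- in red; black lines are the mean and SD of 3 arrays, and each panel spans the same range. F11r shows the widest gap, from 6.01 at most in wild type to 7.74 at least in FOG-2 Rb-, while Jam3, Jam2 and Tjp1 show narrow ones.

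Of the 25 claudins, 3 rose, 0 fell and 22 did not pass. The share called was 12%, beside 18% of all rows, and arrays did not overlap in 28%, beside 35.6% of all rows. Of the 16 dim claudins 0 were called, and of the 9 not dim 3 were. Cldn15, whose protein forms sodium channels between cells of the gut, measured 5.32, 5.29 and 5.14 in wild type and 6.08, 6.17 and 6.28 in FOG-2 Rb-. The genotypes were well apart, and wild type lay just above the dim limit. The log2 difference was 0.93 (SE 0.08, 95% interval 0.75 to 1.10, limma adjusted p = 0.000332).

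Cldn12, an atypical claudin linked to calcium passage in the gut, measured 6.73, 6.75 and 6.83 in wild type and 7.23, 7.33 and 7.34 in FOG-2 Rb-. Each FOG-2 Rb- array was above each wild type array, with a log2 difference of 0.53 (SE 0.05, limma adjusted p = 0.000924). Cldn1, the barrier claudin of the epidermis, measured 6.19, 6.26 and 6.17 in wild type and 6.69, 6.57 and 6.46 in FOG-2 Rb-. The FOG-2 Rb- arrays were more spread than those of wild type but stayed above them, and the log2 difference was 0.37 (SE 0.07, limma adjusted p = 0.0114).

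The other 6 claudins above the dim limit were Cldn3, Cldn4, Cldn9, Cldn11, Cldn19 and Cldn20, and none passed. Cldn20 measured 6.72, 7.02 and 7.13 in wild type and 6.53, 6.63 and 6.61 in FOG-2 Rb-, with all FOG-2 Rb- arrays below those of wild type. Its log2 difference of -0.36 (95% interval -0.62 to -0.11) had a limma adjusted p of 0.0586. It passed as lower without dim rows (adjusted p = 0.0345), with an intensity trend (0.0234), with quantile normalization repeated (0.0374), with the replicate block (0.0483), and without wild type replicate 1 (0.00596). Cldn19, a claudin of kidney and Schwann cells, had a log2 difference of -0.18 (95% interval -0.31 to -0.05, limma adjusted p = 0.0618) and also did not overlap. It passed without dim rows (0.0267) and with quantile normalization repeated (0.0471).

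Cldn11, the claudin of myelin and of Sertoli cells, ranged from 6.02 to 6.55 in wild type and from 5.98 to 6.18 in FOG-2 Rb-, which overlap. Its log2 difference was -0.25 (95% interval -0.57 to 0.07, limma adjusted p = 0.274), and without wild type replicate 3, its low array, it was -0.40 (adjusted p = 0.0253). The epithelial barrier claudins Cldn3 and Cldn4 had log2 differences of -0.05 (95% interval -0.22 to 0.12) and 0.01 (-0.16 to 0.17), and Cldn9 of -0.06 (-0.19 to 0.07).

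The 16 dim claudins had array values from 3.16 to 5.17 on the log2 scale and log2 differences from -0.19 to 0.04. They include the channel claudins Cldn2, Cldn10 and Cldn17, which favour cations or anions, with log2 differences of -0.04, -0.02 and -0.01. Cldn16, needed for magnesium uptake in the kidney, had -0.03, and Cldn5, the claudin of the blood-brain barrier, -0.06. The epithelial claudins Cldn6, Cldn7, Cldn8, Cldn14, Cldn18 and Cldn23 had -0.01, -0.19, 0.02, -0.09, -0.05 and 0.00. For Cldn13, Cldn22, Cldn24, Cldn34a and Cldn34d the values were -0.19, -0.06, 0.04, -0.18 and -0.00. Over all 22 dim members, 95% intervals reached from -0.56 at the lowest end to 0.37 at the highest, so small changes of these genes were not detectable here.

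Several claudin genes are neighbours in the RefSeq gene order (GRCm38.p6), and 6 pairs of members had no other protein-coding gene starting between them. Cldn1 and Cldn16 form such a pair on chromosome 16, where Cldn1 rose and Cldn16 was dim with a log2 difference of -0.03. In the pairs Cldn17 and Cldn8, Cldn6 and Cldn9, Cldn4 and Cldn3, Cldn24 and Cldn22, and Ocln and Marveld2, neither gene passed. Whether Cldn1 and Cldn16 differ in response was not tested.

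None of the MARVEL genes passed. Ocln, the gene of occludin, measured 4.65, 4.69 and 4.74 in wild type and 4.75, 4.57 and 4.62 in FOG-2 Rb-, all dim and overlapping, with a log2 difference of -0.05 (95% interval -0.20 to 0.09). Marveld2, which encodes tricellulin, the protein of three-cell contacts, was dim in both genotypes at 4.66 ± 0.05 and 4.51 ± 0.06 (SD, n = 3 each). Its arrays did not overlap, and the log2 difference was -0.15 (95% interval -0.27 to -0.02, limma adjusted p = 0.109). Marveld3 had -0.05 (95% interval -0.21 to 0.12). Marveld1 was the MARVEL gene above the dim limit, at 9.30 ± 0.04 and 9.31 ± 0.05 (SD, n = 3 each), and its log2 difference was 0.02 (95% interval -0.10 to 0.14).

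On the inner side of the junction, of 4 scaffold and cingulin genes Cgnl1 rose, Tjp1 fell by a call that did not hold in every alternative, and Cgn and Tjp3 did not pass. Cgnl1, which encodes paracingulin, a linker to actin and microtubules, measured 8.21, 8.24 and 8.12 in wild type and 8.92, 8.92 and 8.91 in FOG-2 Rb-. The FOG-2 Rb- arrays lay almost on 1 value and far above wild type, with a log2 difference of 0.73 (SE 0.05, 95% interval 0.61 to 0.85, limma adjusted p = 0.000176). Its relative Cgn, the gene of cingulin, measured 6.44, 6.15 and 6.06 in wild type and 6.19, 6.35 and 6.59 in FOG-2 Rb-, with overlap. Its log2 difference was 0.16 (95% interval -0.15 to 0.47, limma adjusted p = 0.479).

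Tjp1, the gene of ZO-1, which binds the tails of claudins and also sits at cadherin contacts, measured 10.43, 10.40 and 10.29 in wild type and 10.19, 10.12 and 10.17 in FOG-2 Rb-. The genotypes did not overlap, with wild type replicate 3 nearest to the FOG-2 Rb- arrays. The log2 difference was -0.21 (SE 0.05, limma adjusted p = 0.0401). It did not pass when wild type replicate 1 or 2 was dropped (adjusted p = 0.104 and 0.117), nor when FOG-2 Rb- replicate 1, 2 or 3 was (0.0816, 0.124 and 0.105). Tjp3, which encodes the epithelial scaffold ZO-3, had a log2 difference of 0.01 (95% interval -0.18 to 0.19).

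Of the last 3 members, Slc9a3r1 alone rose. It encodes NHERF1, which ties membrane proteins at the apical surface to ezrin, and it measured 7.80, 7.66 and 7.77 in wild type and 8.82, 8.84 and 8.80 in FOG-2 Rb-. The genotypes stood more than 1 log2 unit apart, at 1.08 (SE 0.05, 95% interval 0.95 to 1.20, limma adjusted p = 4.01e-05). Epcam, an epithelial adhesion molecule that stabilizes claudins, was dim at 4.15 ± 0.02 and 4.17 ± 0.14 (SD, n = 3 each), with a log2 difference of 0.02 (95% interval -0.16 to 0.19). Crb3, the apical polarity protein of epithelia, was dim, with a log2 difference of -0.14 (95% interval -0.41 to 0.13).

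Genes that work with these junctions were read from the same fit, as 7 lists by function. These lists too were chosen with earlier results of these data known. Beside the 18% of all rows called, with a median log2 difference of -0.02, the share called was 30% of NHERF1 partners (median 0.04), 50% of other junction membrane proteins (-0.00), 22.2% of claudin partners (-0.00) and 32.4% of polarity genes (0.03). It was 50% of adherens junction genes (0.10), 28.6% of desmosome genes (-0.06) and 35% of transition factors (0.00). Dim rows made up 2 of 18 adherens junction genes, 4 of 34 polarity genes and 4 of 10 NHERF1 partners, beside 9700 of 23748 rows. The lists thus differ from the array in level, and the share called among all rows not dim was not taken here. Of 10 partners of NHERF1, 3 rose and 0 fell. Ezr, which encodes ezrin, rose 1.93-fold from 8.30 ± 0.12 to 9.25 ± 0.04 on the log2 scale (SD, n = 3 each; limma adjusted p = 0.000201). Its relatives Rdx and Msn, radixin and moesin, had log2 differences of -0.13 and -0.12 and did not pass (limma adjusted p = 0.116 and 0.105). Both passed as lower without dim rows (limma adjusted p = 0.0487 and 0.0371) and with an intensity trend (0.00882 and 0.000536). Msn also passed by the deposited p-values, adjusted (0.0129). The other risers were Slc9a3r2 (log2 difference 0.23) and Podxl (0.25), whose row was dim. With FOG-2 Rb- replicate 3 dropped, or wild type replicate 1 or 2, 1 of the 3 rises passed, and without wild type replicate 2, 1 partner was called lower.

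Of 10 other membrane proteins of tight junctions, 3 rose and 2 fell. Cxadr, the coxsackie and adenovirus receptor, which is related in structure to the junctional adhesion molecules, rose 3.36-fold (log2 difference 1.75, SE 0.11, limma adjusted p = 0.0001). Bves rose 1.38-fold, and Ildr2 rose by 0.59 on the log2 scale from a wild type mean of 4.96, under the dim limit. The tetraspanin gene Tspan15 fell 1.66-fold. A single fall passed with any FOG-2 Rb- array dropped, or wild type replicate 2. Of 9 genes in the list of claudin partners and proteases, Cd151 rose 1.45-fold and Cd9 fell 1.70-fold.

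Of 34 polarity and scaffold genes, 8 rose and 3 fell. The discs large gene Dlg1 rose 1.48-fold, Llgl2, a basolateral polarity gene, 1.45-fold and Amotl2 1.43-fold, whereas its relative Amot fell 1.54-fold. With FOG-2 Rb- replicate 1 dropped, or wild type replicate 2 or 3, 4 rises passed in place of 8, and 5 with FOG-2 Rb- replicate 2 dropped. Of 18 adherens junction genes, 6 rose and 3 fell. Cdh3, the gene of P-cadherin, rose 3.02-fold, Nectin2 1.83-fold, the plakoglobin gene Jup 1.58-fold and Cdh2, the N-cadherin gene, 1.54-fold. The falls, named after their values were seen, were those of Cdh11 (log2 difference -0.32), Pkp4 (-0.27) and the dim Ctnna2 (-0.29). Cdh11 had log2 means of 11.46 in wild type and 11.14 in FOG-2 Rb-. With FOG-2 Rb- replicate 1 or 2 dropped, or wild type replicate 3, 1 of these falls passed. Of 7 desmosome genes, Pkp2, a plakophilin, rose 2.45-fold and Ppl, the gene of periplakin, 1.26-fold. Leaving out any 1 array but FOG-2 Rb- replicate 2 left 1 of these rises, and without wild type replicate 1, 1 desmosome gene was called lower.

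Of 20 factors that shift cells between epithelial and mesenchymal states, 4 rose and 3 fell. Foxc2, a forkhead factor that favours the mesenchymal state, fell 1.90-fold, and Tcf4, a helix-loop-helix factor, 1.46-fold. Esrp2, a splicing regulator of epithelia, rose 1.85-fold from 5.52 ± 0.07 to 6.41 ± 0.14 on the log2 scale (SD, n = 3 each; limma adjusted p = 0.00054). Snai1, a repressor of claudin and occludin genes, fell 1.29-fold (limma adjusted p = 0.0496), a call lost without any 1 array except wild type replicate 2 (adjusted p up to 0.143). The other rises, named after their values were seen, were those of Twist2, a factor that favours the mesenchymal state (1.26-fold, limma adjusted p = 0.0156), Klf5 (1.25-fold) and Klf4 (1.14-fold). Of these, Klf5 passed in each of the alternatives, Twist2 did not pass without wild type replicate 3 or without FOG-2 Rb- replicate 2 or 3, and Klf4 did not pass without any 1 array. The repressors Zeb1, Zeb2 and Snai2 had log2 differences of -0.04, 0.08 and -0.07 and did not pass. Snai2 did pass as lower with an intensity trend (limma adjusted p = 0.0357) and by the deposited p-values, adjusted (0.0331). With FOG-2 Rb- replicate 2 or 3 dropped, or wild type replicate 3, 2 rises passed.

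**Figure D4:**
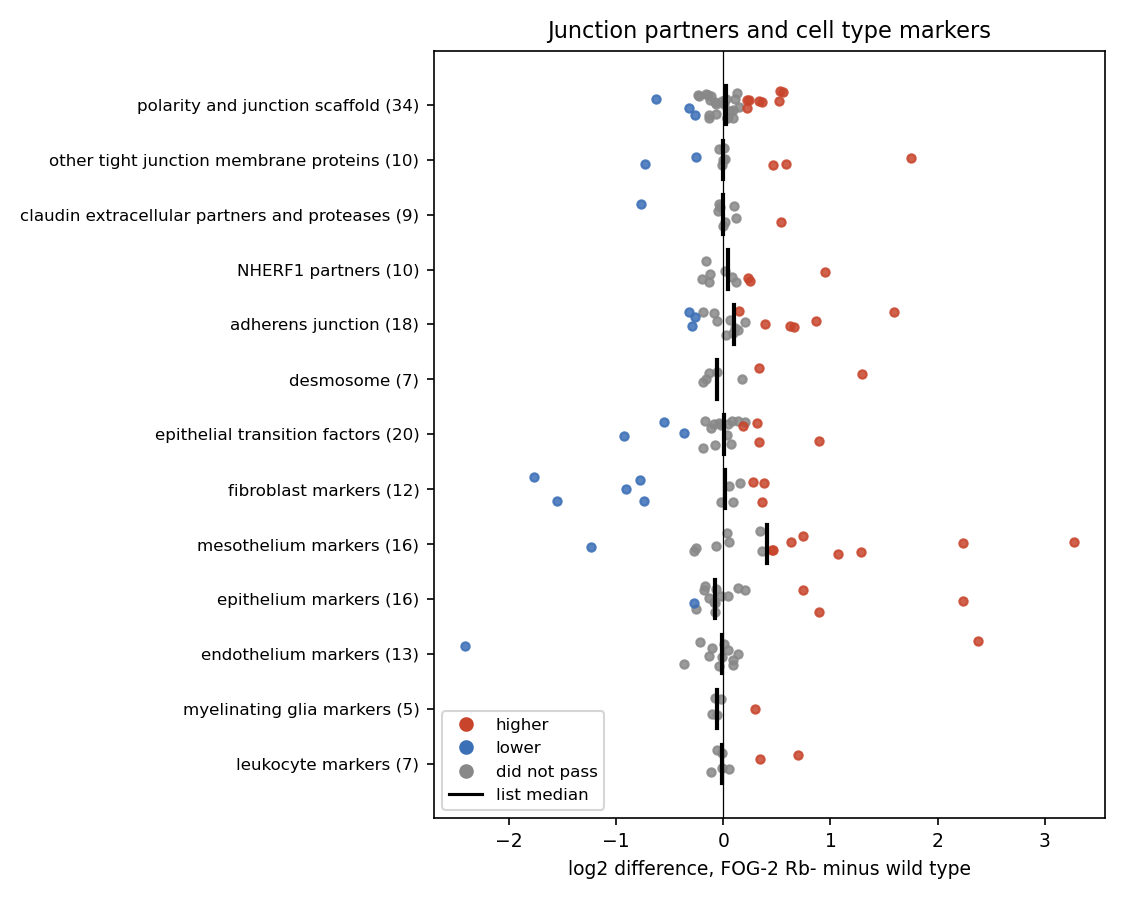
Log2 difference (horizontal axis) of each gene in 7 lists of junction partners and 6 lists of cell type markers, with the number of measured genes in brackets and the list median as a black bar. Red and blue mark genes called higher and lower. The largest rise among the junction partners is that of Cxadr at 1.75, and the mesothelium list has a median of 0.41.

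Markers of other cell types were read beside the junction genes, in lists also chosen with earlier results of these data known. The share called was 56.2% of mesothelium markers (median log2 difference 0.41), 25% of epithelium markers (-0.07), 15.4% of endothelium markers (-0.01), 28.6% of leukocyte markers (-0.01), 20% of glia markers (-0.06) and 66.7% of fibroblast markers (0.01). Dim rows made up 3 of 16 mesothelium, 7 of 16 epithelium and 6 of 13 endothelium markers. They made up 4 of 7 leukocyte, 3 of 5 glia and 0 of 12 fibroblast markers, beside 9700 of 23748 rows. Mesothelium, the flat epithelium that lines body cavities, had 8 of 16 markers higher and 1 lower. Their summed linear signal ran from 1049 to 1116 in wild type and from 1979 to 2113 in FOG-2 Rb-. Of the mean rise of 958 in this sum, Upk1b made up 564 and Krt18 233. Among its defining markers, Upk3b rose 2.44-fold and Wt1 2.10-fold, the dim Lrrn4 rose by 0.46 on the log2 scale, and Msln fell 2.35-fold. Upk1b rose 9.68-fold and Krt18 4.72-fold. Without FOG-2 Rb- replicate 1, 2 markers were called lower. The part of mesothelial cells in the rise of the junction genes was not tested.

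Of 16 epithelium markers, 3 rose and 1 fell, with a summed signal of 639 to 661 in wild type and 908 to 932 in FOG-2 Rb-. Krt18 made up 233 of the mean rise of 271 in this sum, and 12 of the 16 markers did not pass. The risers, Krt18, Krt19 and Esrp2, include 2 that the mesothelium list holds too, and the fall was that of Trp63, a dim row (log2 difference -0.27), whose call was lost with FOG-2 Rb- replicate 1 or 3 dropped. The defining markers Esrp1 and Grhl2 were dim, and Cdh1 and Krt5 had log2 means of 5.21 and 5.14 in wild type and 5.41 and 5.06 in FOG-2 Rb-, close to the dim limit. Cdh1, the gene of E-cadherin, had a log2 difference of 0.20 (95% interval 0.04 to 0.36, limma adjusted p = 0.0983) and passed with quantile normalization repeated (adjusted p = 0.0438). The part of epithelial cells was not tested.

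Of 13 endothelium markers, Kdr rose 5.18-fold and Eng fell 5.33-fold, and the summed signal ran from 951 to 1014 in wild type and from 792 to 833 in FOG-2 Rb-. The defining markers Tie1 and Emcn were dim, and Pecam1 and Cdh5, at 5.26 and 5.31 in wild type, had log2 differences of 0.09 and 0.04. Of 7 leukocyte markers, Cd68 rose 1.62-fold and Csf1r 1.26-fold, with a dim Ptprc and a summed signal of 390 to 411 in wild type and 500 to 517 in FOG-2 Rb-. Cd68 made up 95.7 of the mean rise of 108 in that sum. Csf1r passed neither without wild type replicate 2 or 3 nor without FOG-2 Rb- replicate 2 or 3. Of 5 myelinating glia markers, Mbp rose 1.23-fold, a call lost without any 1 array, and the defining marker Sox10 was dim. Fibroblast markers had 3 of 12 higher and 5 lower; Dcn fell 3.41-fold, Pdgfra 1.87-fold and Thy1 1.71-fold, and Col1a1 rose 1.30-fold. Lum, under the dim limit on all FOG-2 Rb- arrays, was at least 1.77-fold lower there when that group is set at the limit. The summed fibroblast signal ran from 40347 to 41187 in wild type and from 40298 to 40697 in FOG-2 Rb-. The mean change of -370 in this sum hides changes both ways. The largest rises were 1644 for Col1a1, 555 for Fn1 and 458 for Postn. The largest falls were -2032 for Dcn, -1062 for Pdgfra and -575 for S100a4.

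**Figure D5:**
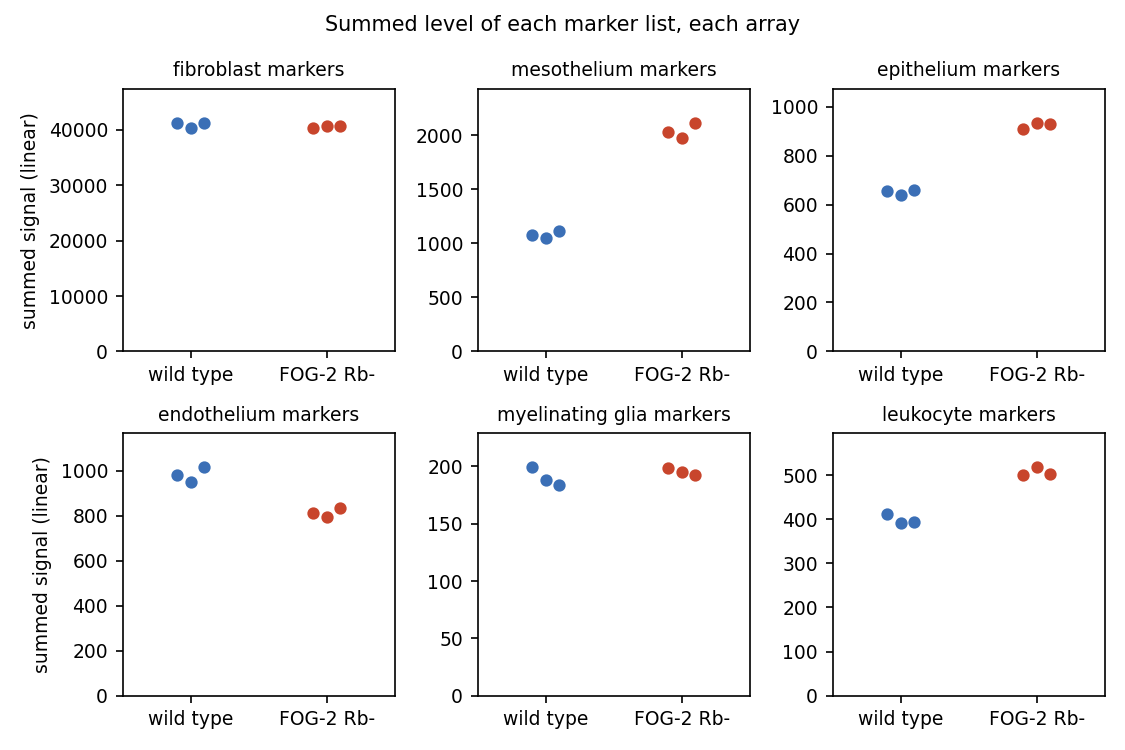
Summed linear signal (vertical axis, from 0) of each list of cell type markers on each array, wild type in blue and FOG-2 Rb- in red. The mesothelium sum is at most 1116 in wild type and at least 1979 in FOG-2 Rb-. The fibroblast sums of the genotypes overlap, although single fibroblast markers rose and fell within them.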

How the data were processed

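Per the labels' protocols, 270 ng of total RNA from each sample was labelled for Affymetrix whole-transcript arrays. The authors deposited log2 expression values of 23748 rows on 6 arrays; per the submitters' processing notes, RMA and Partek were used. Their versions and the build were not given in the sources used here. The authors also deposited their own comparison, with an unadjusted p-value, a ratio and a signed fold score per gene. Taken as log2, the deposited ratio matched FOG-2 Rb- minus wild type means to within 7.18e-06.

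The platform annotation gave 1 symbol for 23111 rows and none for 637. Of 172 listed genes, 167 were found. A linear model with a term for genotype alone was fitted to the 6 arrays (limma 3.58.1, R 4.3.3) with eBayes moderation. Its two-sided p-values were Benjamini-Hochberg adjusted over all rows, at a threshold of 0.05. The fit was tested on simulated data. Members and lists were chosen with earlier results of these data known. Every called member is named with its arrays. From each list, up to 4 called genes with the largest absolute log2 difference are named, and the defining markers of each cell type. Rdx, Msn, Zeb1, Zeb2, Snai2, Twist2, Klf4, Klf5, Cdh11, Pkp4 and Ctnna2 were named beyond this rule, after their values were seen. Alternatives left out each array or the dim rows, added a replicate block or an intensity trend, rescaled the arrays, used the deposited p-values, or matched symbols through RefSeq. Scanner files were not used here, and a comparison of proteins was not made. The number of arrays limits the precision.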

Additional observations from a re-analysis of the deposited data

How the results depend on the processing

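Counts of tight junction genes were 8 higher and 1 lower. Higher counts stayed between 6 and 8, and the 6 genes called in each alternative are named in the results. Without 1 array, higher counts ran from 6 to 8 and lower counts from 0 to 2. Lower counts were 3 without dim rows and 3 with quantile normalization repeated (Cldn19 and Cldn20 added), 2 with an intensity trend, and 0 by the deposited p-values. Same-numbered samples of the genotypes did not deviate together (correlations of 0.0314, 0.0176 and 0.00208), so the numbers were not taken to pair them. With the replicate block all the same, 6 were higher and 1 lower, the latter Cldn20, and Jam2, Jam3 and Tjp1 had adjusted p of 0.0869, 0.0514 and 0.0818; the deposited p-values, adjusted, gave these 0.0531, 0.0921 and 0.0666. Over all rows, calls without 1 array ran from 1492 to 1856 higher and from 1313 to 1668 lower.

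Among lists, the replicate block gave 5 higher polarity genes, 1 lower adherens junction gene, 1 higher desmosome gene, 0 lower epithelium markers, 0 higher glia markers and 1 higher leukocyte marker. The intensity trend gave 6 lower polarity genes, 2 higher claudin partners, 2 lower NHERF1 partners, 1 lower desmosome gene, 5 lower transition factors and 5 higher fibroblast markers. Without dim rows, 2 NHERF1 partners were lower, 0 epithelium markers lower and 2 endothelium markers higher. Centred arrays gave 1 lower gene among other junction membrane proteins. The deposited p-values gave there 0 lower, 1 lower NHERF1 partner, 1 lower adherens junction gene, 1 higher desmosome gene, 2 higher transition factors, 0 higher glia markers and 1 higher leukocyte marker. Without 1 array, the ranges were 4 to 7 higher polarity genes, 1 to 2 lower junction membrane proteins, 1 to 2 higher and 0 to 1 lower NHERF1 partners, 1 to 3 lower adherens junction genes, 1 to 2 higher and 0 to 1 lower desmosome genes, 2 to 3 higher transition factors, 1 to 2 lower mesothelium markers, 0 to 1 lower epithelium markers, 0 higher glia markers and 1 to 2 higher leukocyte markers.

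Signs of genes that did not pass turned when 1 array was left out. The log2 differences then ran from -0.046 to 0.13 for Cdh5, -0.058 to 0.0056 for Cldn10, -0.21 to 0.016 for Cldn14, -0.052 to 0.022 for Cldn16, -0.062 to 0.035 for Cldn17 and -0.098 to 0.030 for Cldn18. They ran from -0.11 to 0.010 for Cldn2, -0.087 to 0.14 for Cldn23, -0.11 to 0.15 for Cldn24, -0.045 to 0.042 for Cldn34d, -0.054 to 0.054 for Cldn4 and -0.038 to 0.039 for Cldn6. The ranges were -0.023 to 0.073 for Cldn8, -0.060 to 0.059 for Epcam, -0.079 to 0.11 for Esam, -0.064 to 0.0057 for Esrp1, -0.010 to 0.041 for Marveld1 and -0.10 to 0.014 for Marveld3. Further ranges were -0.055 to 0.013 for Ptprc, -0.17 to 0.020 for Sox10 and -0.041 to 0.070 for Tjp3. For Zeb1 the range was -0.070 to 0.0077. Quantile normalization gave 0.0066 for Cldn16, 0.0051 for Cldn17, 0.022 for Cldn6 and 0.031 for Esam, and centred arrays 0.00030 for Cldn34d. The cause of these shifts was not tested. Dim genes have no value without dim rows, and the array background that would bound their levels was not used here.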
